A study of Homo sapiens with 6 samples.

Results

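The genes described here encode the cytosolic translation initiation factors (eIF) and elongation factors (eEF), with their inhibitors and one modifying enzyme. They are the rows of the deposited expression table whose symbols begin with EIF and a digit, or with EEF1 or EEF2. Rows for the EIF2AK kinases, EIF1AY, KMT methyltransferases, hyphenated symbols and pseudogenes (symbols ending in P and digits) were left out. EIF4EBP1, EIF4EBP2 and EIF4EBP3 also end in P and a digit but encode eIF4E-binding proteins, so they were kept. This left 60 genes of the 60671 in the table, out of 213 rows that match the opening of the symbol. Without the 3 binding protein genes the rule gives 57.

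The RNA is from HaCaT, an immortalised keratinocyte cell line of human skin, with a wild-type genotype in the labels, which give the batch as unknown. In one group (3 libraries) the cells were kept for 24 h in serum-free high-glucose medium holding IFN-beta, a type I interferon, at a dose of 160 ng/mL, and in the control group (3 libraries) for as long in that medium without it. Serum was therefore withdrawn from both groups. Whether the libraries of a group stem from different cultures is not stated, and the p-values cover just the spread among these 6, which may be technical. Treated libraries are those of the IFN-beta group.

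Initiation factors bring the initiator tRNA and the small ribosomal subunit to the capped end of an mRNA, scan to the start codon and join the large subunit. Elongation factors then deliver aminoacyl-tRNAs and move the ribosome along. Cells adjust this machinery through the phosphorylation of eIF2, through proteins that sequester the cap-binding factor eIF4E, and through mTOR signalling. Many mRNAs for elongation factors and some eIF3 subunits begin with a 5′ terminal oligopyrimidine (TOP) motif, a C at the cap followed by a stretch of C and U, through which mTOR and LARP1 set their translation and stability. Interferons are known to act on translation through the eIF2 kinase PKR and the IFIT proteins.

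The libraries held between 25832158 and 30594527 reads, as recovered from the steps of the deposited FPKM (fragments scaled by gene length and by library total). All 6 keratinocyte markers examined reached 1 FPKM, with summed levels of 3080 to 3490 FPKM in control and 2930 to 2950 FPKM in treated libraries. Of the 6 fibroblast markers 1 reached 1 FPKM, and DCN and PDGFRA were under 0.5 FPKM in every library. The melanocyte list had 2 of 5 markers at 1 FPKM or more, with TYR and MLANA under 0.5 FPKM. For endothelium it was 1 of 3. The summed endothelial markers stood at 0.696 to 0.964 FPKM in control and 2.12 to 2.21 FPKM in treated libraries, while PECAM1 and VWF were under 0.5 FPKM. Reads from the mitochondrial chromosome made up 6.16% to 6.65% of reads in control and 4.54% to 5.03% in treated libraries.

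More factor genes were lower than higher after IFN-beta. A limma model was fitted to log2(FPKM + 0.5) over the 15163 genes with a mean of at least 0.5 FPKM, and a gene passed at a Benjamini-Hochberg adjusted p under 0.05. Of the 57 factor genes tested 26 were called in either direction, beside 42.4% of all tested genes. Lower were 21, or 36.8%, where 19.9% of all tested genes fell. By contrast 5 rose, or 8.77%, where 22.5% of all tested genes rose. The other 31 did not pass. Over all 57 the median log2 change was -0.07, beside 0.01 over all genes tested, and the range ran from -0.50 (EIF3E) to 0.61 (EIF5A2). Groups did not overlap in 32 of the 57 genes, or 56.1%, beside 54% of all tested genes.

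Small shifts in scaling matter at changes of this size. After rescaling to the same sum 6 factor genes rose and 16 fell, and after quantile normalization 4 rose and 21 fell. Higher genes made up 53.2% of all calls in the table, 63.2% after rescaling and 41.3% after quantile normalization. The count of risen genes was 1 without control replicate 2, 2 without IFN-beta replicate 1 or 3, 3 without IFN-beta replicate 2, and 6 without control replicate 1 or 3. The count of fallen genes stayed between 16 and 22 when any one library was left out. With the reads of the mitochondrial chromosome set aside in the scaling, 24 factor genes fell and 3 rose.

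**Figure D1:**
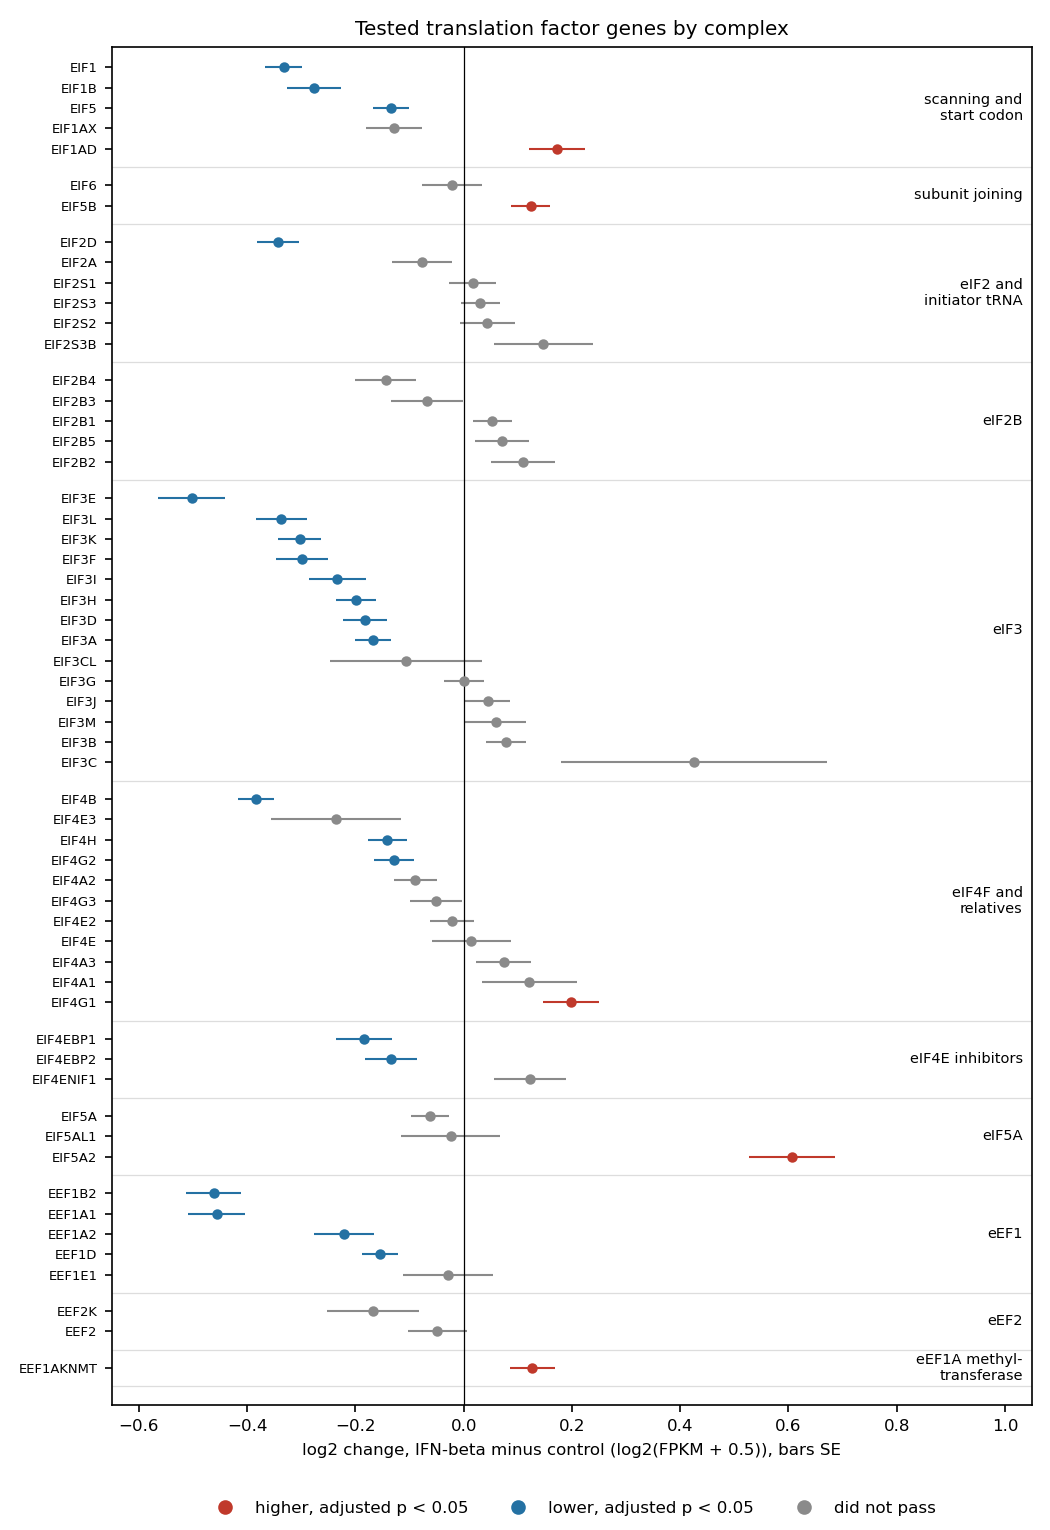
Log2 change of the 57 tested factor genes (IFN-beta minus control, on the log2(FPKM + 0.5) scale), grouped by complex, with bars for the SE (3 libraries per group) and colours for the limma call. The eEF1 and eIF3 groups lie mostly left of 0, the eIF2 and eIF2B subunits lie around it, and EIF5A2 stands apart at 0.61.

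The factor genes were also read at the letters around their annotated transcript starts, where a TOP motif would lie. RefSeq windows of 300 bases (build GRCh38.p14), which reach from before the start into the transcript, matched 49 of the 60 genes. Those without an entry were EEF1A2, EEF1AKNMT, EEF1D, EIF2S2, EIF3A, EIF3CL, EIF3E, EIF3G, EIF3H, EIF3L and EIF4EBP1. A pyrimidine run was defined as a C at the annotated start followed by at least 4 bases that were each C or T, on the strand of the gene. It was found in 4.07% of the 35116 windows in the table. The following genes have the run and fell. Each sequence is 30 bases long, 10 before the start and 20 from it, 5′ to 3′ on the gene's strand, with the run in capitals.

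EEF1A1 (chr6:73521013-73521042, minus strand): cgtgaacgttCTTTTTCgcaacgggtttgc

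EEF1B2 (chr2:206159885-206159914, plus strand): ctcttcgggtCCTTTTTCCTCTCTTCagcg

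EIF2D (chr1:206612446-206612475, minus strand): ccagccgggcCCTTTTCgcggccgggcccc

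EIF3D (chr22:36529147-36529176, minus strand): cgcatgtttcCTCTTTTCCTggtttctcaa

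EIF3F (chr11:7987327-7987356, plus strand): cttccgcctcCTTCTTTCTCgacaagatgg

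EIF3K (chr19:38619178-38619207, plus strand): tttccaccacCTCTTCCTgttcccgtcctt

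EIF4B (chr12:53006446-53006475, plus strand): tcatccgggtCTTTTgcgttctctttccct

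The next 4 have the run and did not pass the test, and are shown because they bear the same kind of start as those that fell.

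EEF2 (chr19:3985444-3985473, minus strand): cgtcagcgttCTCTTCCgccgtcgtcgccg

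EIF2S3 (chrX:24054946-24054975, plus strand): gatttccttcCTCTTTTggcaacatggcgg

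EIF3M (chr11:32583821-32583850, plus strand): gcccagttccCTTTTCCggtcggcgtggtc

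EIF4A2 (chr3:186783567-186783596, plus strand): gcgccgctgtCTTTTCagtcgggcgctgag

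The last 3 rose, and no run begins at their start. The same holds for EIF4G1, which also rose and is not shown. It holds too for 7 factor genes that fell and are not shown, among them EIF1 (-0.33) and EIF1B (-0.28).

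EIF5A2 (chr3:170908618-170908647, minus strand): cccgtctcttggaactgccgcggccgccac

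EIF5B (chr2:99337379-99337408, plus strand): ctgagaactcacaccatatgtgtcctgttc

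EIF1AD (chr11:66002138-66002167, minus strand): cagcgccggaagtacggttttcggagggat

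Of the 46 tested factor genes with a window, 13 had the run at a start. Among these 7 fell, none rose, and the median log2 change was -0.18. EIF2A and EIF2S3B were the other 2 that did not pass. Of the 33 factor genes without the run 7 fell and 4 rose, with a median of -0.02. Genes without a window are in neither group, which limits this comparison. Among those, EEF1A2, EEF1D, EIF3A, EIF3E, EIF3H, EIF3L and EIF4EBP1 fell and EEF1AKNMT rose. Over all tested genes with a window, 31.2% of the 752 with the run fell and 17.8% rose (median -0.06), and 21.4% of the 9307 without it fell and 24.7% rose (median 0.01). The run is a match of letters at one annotated base and not a mapped start in these cells, and 11 of the factor genes have several windows, where any one with the run counted.

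**Figure D2:**
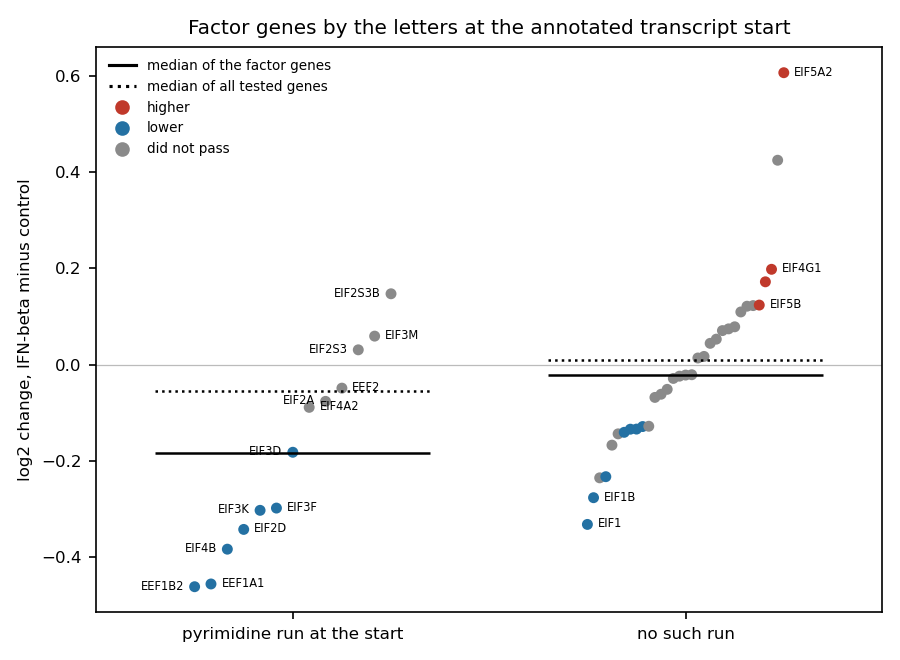
Log2 change (IFN-beta minus control) of the 46 tested factor genes with a RefSeq window, split by whether a pyrimidine run begins at an annotated start (13 genes) or not (33 genes). Points are genes coloured by the limma call, solid lines are medians of the factor genes (-0.18 and -0.02) and dotted lines those of all tested genes (-0.06 and 0.01).

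A list of 9 factor genes known as carriers of a TOP motif was read as well. It shares EEF1A1, EEF1B2, EEF2, EIF3F and EIF4B with the genes that have the run, so its count is not independent of theirs. Of its 8 tested members 7 fell, with a median log2 change of -0.34, and EEF2 did not pass. The share that fell was 19.9% of all tested genes and 31.2% of those with the run. This list was drawn up with the fall of ribosomal protein genes in these data already known, so it is a description. All 5 other listed genes with a TOP motif fell as well, among them PABPC1 (-0.43), which binds the poly(A) tail, and TPT1 (-0.35), the translationally controlled tumour protein.

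The eEF1 complex, which carries aminoacyl-tRNA to the ribosome and recharges itself with GTP, had 4 of 5 tested genes lower and none higher, beside backgrounds of 19.9% and 22.5%. EEF1B2, a guanine nucleotide exchange subunit, lies on chromosome 2 from 206159585 to 206162928 in the table. It measured 519, 523 and 581 FPKM in the control libraries and 384, 384 and 409 FPKM in the treated libraries. Every IFN-beta library was below every control library. The change was -0.46 ± 0.051 (SE) on the log2 scale (adjusted p = 0.000146), and mean FPKM fell by 27.5%.

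EEF1A1, the GTPase that binds aminoacyl-tRNA and the most abundant of the factor mRNAs in FPKM, stood at 4128, 4305 and 4610 FPKM in control and 3218, 3083 and 3195 FPKM in treated libraries. The groups were apart by far more than their spread, with a log2 change of -0.46 ± 0.053 (adjusted p = 0.000181). After quantile normalization the change was -0.09 and the call ended (adjusted p = 0.152). The gene ranked between 8 and 10 among all tested genes in every library, and quantile normalization gives genes of the same rank the same value by construction. EEF1A2, the paralog typical of muscle and nerve, was far lower, at 28.9 ± 1.64 and 24.7 ± 1.06 FPKM (SD, n = 3), and had a log2 change of -0.22. Its call ended without IFN-beta replicate 2 (adjusted p = 0.0515).

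EEF1D, the second exchange subunit, had a log2 change of -0.16 with groups that did not overlap. Its exons are covered to 34.0% by genes on the opposite strand, and whether reads were counted by strand is not given in the sources used here. EEF1E1, a scaffold protein of the multi-tRNA synthetase complex that carries the eEF1 name, had a change of -0.03 and did not pass. EEF1G, the structural gamma subunit, is listed at 0 in all 6 libraries. In GENCODE release 29 99.9% of its exonic bases also belong to the read-through gene AP002990.1, itself at 0.045 to 0.118 FPKM, so the table gives no measure of this subunit.

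The translocation factor EEF2 did not pass. It measured 2191, 2004 and 1906 FPKM in control and 1942, 1964 and 1981 FPKM in treated libraries, groups that overlap (log2 change -0.05 ± 0.054, adjusted p = 0.502). After quantile normalization it turned to 0.15 and did not pass (adjusted p = 0.0939). The difference between its change and that of EEF1A1 was not tested. EEF2K, the kinase that inactivates eEF2, had a change of -0.17 and did not pass (adjusted p = 0.143), though it passed without control replicate 3 (-0.26, adjusted p = 0.00954). EEF1AKNMT, a methyltransferase that modifies eEF1A and enters by its symbol, rose from 34.0 ± 1.09 to 37.2 ± 0.31 FPKM (0.13, adjusted p = 0.0358). Its call ended in 5 of the 6 fits that leave out a library (adjusted p from 0.0696 to 0.111), all but the one without control replicate 1. The call also ended in 5 settings that keep all libraries, among them quantile normalization (adjusted p = 0.126).

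**Figure D3:**
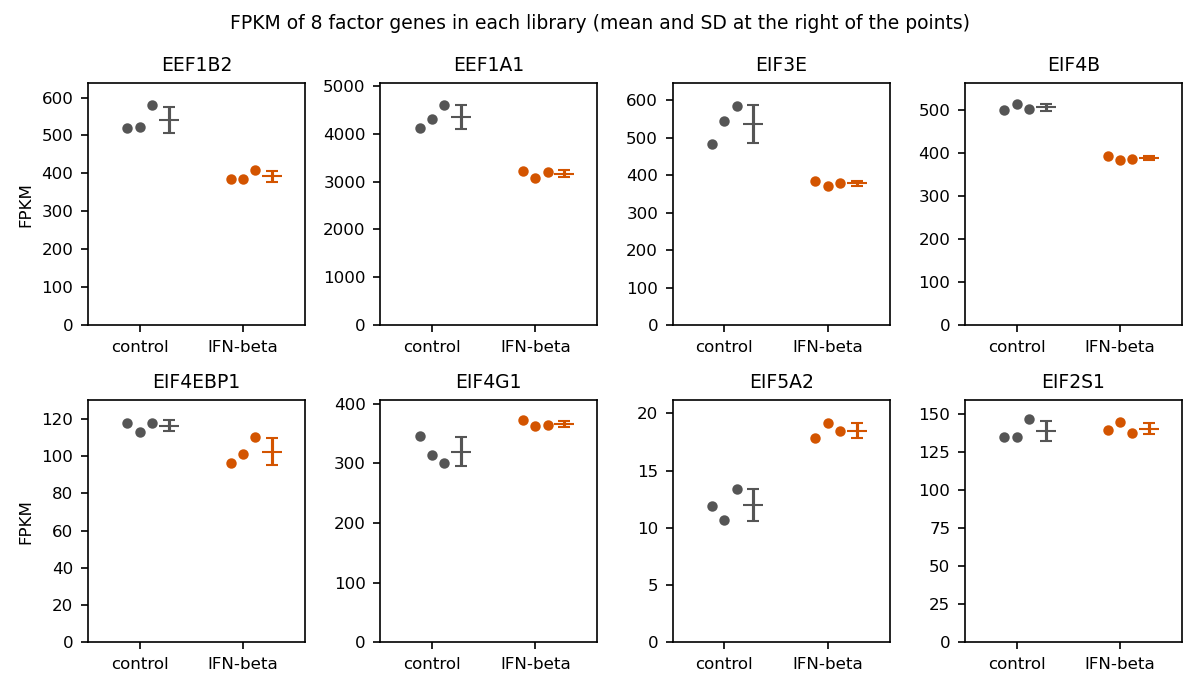
FPKM in each of the 6 libraries for EEF1B2, EEF1A1, EIF3E, EIF4B, EIF4EBP1, EIF4G1, EIF5A2 and EIF2S1, with the mean and SD (n = 3) beside the points and axes from 0. The IFN-beta points lie below all control points for the first 5 genes and above them for EIF4G1 and EIF5A2, and the groups overlap for EIF2S1.

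In eIF3, the large scaffold that holds the small subunit, the mRNA and the other factors together, 8 of 14 genes fell and none rose, where 19.9% of all tested genes fell and 22.5% rose. The fall was largest in EIF3E, at 484, 543 and 584 FPKM in control and 384, 372 and 379 FPKM in treated libraries. The lowest control library was above the highest IFN-beta library (log2 change -0.50 ± 0.062, adjusted p = 0.000277). EIF3L (-0.34), EIF3K (-0.30), EIF3F (-0.30), EIF3I (-0.23), EIF3H (-0.20), EIF3D (-0.18) and EIF3A (-0.17) followed, each with groups that did not overlap. These 8 calls held under every alternative tried. EIF3L shares 41.1% of its exonic bases with AL022311.1 on the same strand and 10.7% with ANKRD54 on the opposite strand, so its level is less certain.

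Differences between the eIF3 subunits were not tested. The core octamer is built of subunits with PCI and MPN domains, and of these EIF3A, EIF3E, EIF3F, EIF3H, EIF3K and EIF3L fell. EIF3M, also of the octamer, stood at 226, 243 and 267 FPKM in control and 256, 255 and 253 FPKM in treated libraries, a change of 0.06 that did not pass. Without control replicate 3 EIF3M passed as higher (0.12, adjusted p = 0.0312). In the module of subunits b, g and i, EIF3I fell while EIF3G had a change of 0.00 and EIF3B one of 0.08 that did not pass. EIF3B passed as higher after rescaling to the same sum (0.12, adjusted p = 0.0286) and without control replicate 1 (0.11, adjusted p = 0.0399). EIF3J, which joins the complex loosely, had a change of 0.04.

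The last octamer subunit, eIF3c, cannot be read from this table. EIF3C and EIF3CL are near-identical copies on chromosome 16, between which reads may be split or lost. EIF3C varied from 12.7 to 19.3 FPKM in control libraries and stood at 27.0, 13.5 and 26.3 FPKM in the treated libraries. IFN-beta replicate 2 thus lay inside the control range, and without it the change of 0.43 became 0.74 and passed (adjusted p = 0.00595). EIF3CL was at 1.40 to 1.93 FPKM in control and 1.27 to 1.70 FPKM in treated libraries.

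**Figure D4:**
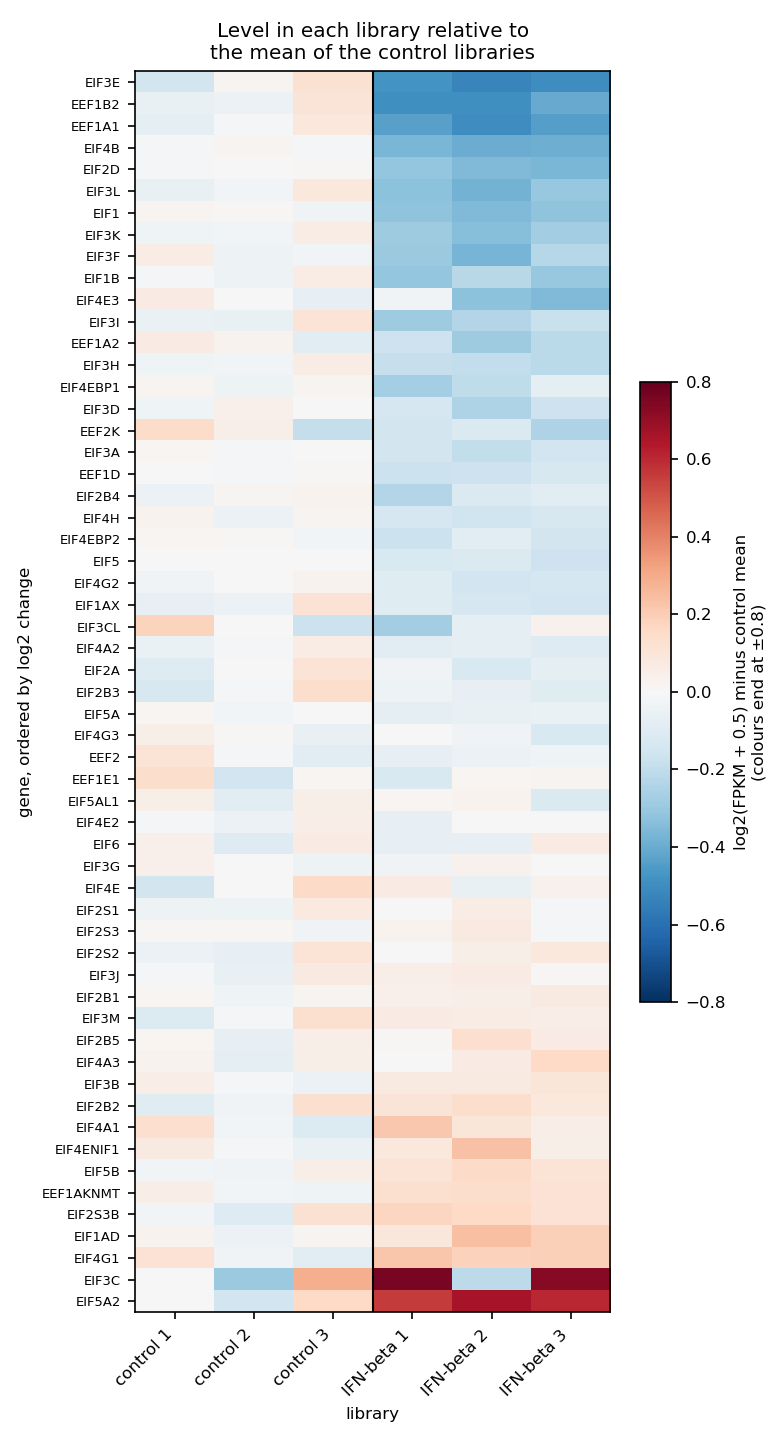
Level of the 57 tested factor genes in each of the 6 libraries, as log2(FPKM + 0.5) minus the mean of the 3 control libraries, ordered by log2 change. The genes from EIF3E to EIF1B are blue in all 3 treated libraries, EIF5A2 is red in all 3, and EIF3C is red in 2 of 3.

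Of 5 factors that scan for the start codon or share a domain with one, 3 fell and 1 rose, beside 19.9% and 22.5% of all tested genes. EIF1, which keeps the scanning complex open until the start codon is found, measured 486, 480 and 468 FPKM in control and 382, 374 and 383 FPKM in treated libraries. All 3 treated libraries were below the controls (log2 change -0.33 ± 0.034, adjusted p = 9.26e-05). Its paralog EIF1B (-0.28) and EIF5 (-0.13), which triggers GTP hydrolysis by eIF2, fell too, and the EIF5 call ended after rescaling to the same sum (adjusted p = 0.0621). EIF1AX had a change of -0.13 with groups that did not overlap and did not pass (adjusted p = 0.0739). It passed as lower in 4 of 18 alternatives, after quantile normalization (adjusted p = 0.021), scaling on nuclear genes (0.0367), voom (0.038) and with control replicate 1 left out (0.0438).

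EIF1AD, whose protein shares a domain with eIF1A, rose from 27.0, 25.7 and 26.8 FPKM in control to 28.2, 31.4 and 30.2 FPKM in treated libraries (0.17 ± 0.052, adjusted p = 0.0254). The call ended without control replicate 2 (adjusted p = 0.0912) and with IFN-beta replicate 2 or 3 left out (adjusted p = 0.101 and 0.0757). It also ended in 4 settings that keep all libraries, among them quantile normalization (adjusted p = 0.0887). EIF5B, the GTPase that joins the subunits, rose from 126, 125 and 132 FPKM to 138, 142 and 138 FPKM (0.12 ± 0.037, adjusted p = 0.0238). That call ended without control replicate 2 (adjusted p = 0.0905) and with IFN-beta replicate 1, 2 or 3 left out (adjusted p = 0.0593, 0.0988 and 0.0515). It ended as well in 5 settings that keep all libraries, among them quantile normalization (adjusted p = 0.181) and scaling on nuclear genes (0.0544). EIF6, which keeps free large subunits from joining, stood at 147, 132 and 149 FPKM in control and 136, 136 and 149 FPKM in treated libraries, with overlap (-0.02, adjusted p = 0.788).

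The subunits of eIF2, the GTPase that brings the initiator tRNA and the target of the stress kinases, were at near-equal levels in both groups. EIF2S1, the alpha subunit that is phosphorylated, stood at 135, 135 and 147 FPKM in control and 140, 145 and 138 FPKM in treated libraries (log2 change 0.02 ± 0.044, adjusted p = 0.783). EIF2S2 (0.04) and EIF2S3 (0.03) had overlapping groups as well. EIF2S3B, a retrogene copy of EIF2S3 at 3.13 to 3.90 FPKM, had a change of 0.15 and did not pass. None of the 5 genes of eIF2B, the exchange factor that recharges eIF2, passed, with changes from -0.14 (EIF2B4) to 0.11 (EIF2B2). EIF2B4 passed as lower after quantile normalization (adjusted p = 0.0265) and with 2 other scalings (adjusted p = 0.0353 and 0.0351), and EIF2B2 as higher without control replicate 3 (adjusted p = 0.0162). The levels of mRNA say nothing of the phosphorylation through which these factors are controlled.

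EIF2D was the exception in this group. It encodes a factor that places initiator tRNA without eIF2 and acts in ribosome recycling. Its levels were 44.4, 45.1 and 45.4 FPKM in control and 36.1, 35.1 and 34.8 FPKM in treated libraries. The change of -0.34 ± 0.038 (adjusted p = 0.00015) held under every alternative. EIF2A, another factor able to bind initiator tRNA, had a change of -0.08 and overlapping groups.

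Among the cap-binding complex eIF4F and its relatives 3 of 11 tested genes fell and 1 rose, a share of falls near the 19.9% of all tested genes, of which 22.5% rose. EIF4B, which stimulates the eIF4A helicase, had the clearest fall, from 501, 515 and 504 FPKM in control to 393, 384 and 387 FPKM in treated libraries (log2 change -0.38 ± 0.033, adjusted p = 3.42e-05). EIF4H, its smaller counterpart, had a change of -0.14, and its call ended after rescaling to the same sum (adjusted p = 0.0564) and without IFN-beta replicate 2 (adjusted p = 0.0579). EIF4G2, a relative of eIF4G that lacks the eIF4E-binding site, had a change of -0.13. After quantile normalization EIF4G2 turned to 0.10 and passed as higher (adjusted p = 0.0358). Its call also ended without control replicate 2 and without IFN-beta replicate 2 or 3 (adjusted p = 0.0707, 0.0984 and 0.0739). The change stayed between -0.15 and -0.11 with any one library left out. Among the alternatives its direction turned under quantile normalization only. Among all tested genes EIF4G2 ranked 75, 75 and 78 in control and 66, 68 and 72 in treated libraries.

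EIF4G1, the scaffold that links cap-binding protein, helicase and eIF3, went the other way. It stood at 346, 313 and 300 FPKM in control and 372, 362 and 365 FPKM in treated libraries, without overlap (log2 change 0.20 ± 0.052, adjusted p = 0.0143). The call ended without control replicate 2 or IFN-beta replicate 1 (adjusted p = 0.0548 and 0.0527), with a change of 0.18 and 0.19. EIF4G3, its paralog, had a change of -0.05. The log2 ratio of EIF4G3 to EIF4G1 went from -2.94 ± 0.059 to -3.19 ± 0.057 (SD, n = 3 libraries) with no overlap, at a two-sided exact permutation p of 0.1, the smallest that 3 against 3 libraries allow (adjusted p = 0.167 over 5 ratios).

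EIF4E itself, which binds the cap, measured 39.0, 43.3 and 48.1 FPKM in control and 45.4, 41.6 and 44.3 FPKM in treated libraries, which lie within the control range (0.01 ± 0.073, adjusted p = 0.898). Its homologs EIF4E2 (-0.02) and EIF4E3 (-0.24, at 1.83 to 2.61 FPKM) did not pass, and EIF4E1B is listed at 0 in every library. The helicase EIF4A1 stood at 6.17, 5.47 and 5.12 FPKM in control and 6.54, 6.0 and 5.81 FPKM in treated libraries (log2 change 0.12, not passed), and 48.6% of its exonic bases are shared with other genes on the same strand, among them SENP3-EIF4A1. Its level is therefore uncertain, as is the log2 ratio of EIF4A2 to EIF4A1, whose groups overlap (exact permutation p = 0.3). EIF4A2 had a change of -0.09 and EIF4A3, the helicase of the exon junction complex, one of 0.07, and neither passed. EIF4A2 passed as lower without control replicate 1 (-0.12, adjusted p = 0.0389) and with scaling on nuclear genes (-0.11, adjusted p = 0.0394).

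Of the eIF4E-binding proteins, which sequester eIF4E until mTOR phosphorylates them, EIF4EBP1 and EIF4EBP2 passed as slightly lower. Neither call held under every alternative. EIF4EBP1 measured 118, 113 and 118 FPKM in control and 96.0, 101 and 110 FPKM in treated libraries, groups separated by a narrow gap (log2 change -0.18 ± 0.052, adjusted p = 0.0198). The call ended without IFN-beta replicate 1 or 2 (adjusted p = 0.0751 and 0.0665) and after rescaling to the same sum (adjusted p = 0.0542). It also ended without the filter on low values (adjusted p = 0.0594) and in eBayes without trend (adjusted p = 0.0626). EIF4EBP2 fell by 9.1% in mean FPKM (-0.13, adjusted p = 0.0491), a call that ended in each of the 6 fits with a library left out (adjusted p from 0.0518 to 0.154). The EIF4EBP2 call also ended in 5 settings that keep all libraries, among them rescaling to the same sum (adjusted p = 0.18). The log2 ratio of EIF4EBP1 to EIF4E was 1.42 ± 0.157 in control and 1.23 ± 0.126 in treated libraries, with overlap (exact permutation p = 0.2, adjusted p = 0.25 over 5 ratios). EIF4EBP3 reached at most 0.144 FPKM, was not tested, and shares 73.4% of its exonic bases with ANKHD1-EIF4EBP3. EIF4ENIF1, which carries eIF4E into the nucleus and to P-bodies, had a change of 0.12 and did not pass.

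The largest rise was in EIF5A2, the less abundant paralog of EIF5A. Both encode the hypusine-bearing factor that helps ribosomes through difficult peptide bonds. EIF5A2, on chromosome 3 from 170888418 to 170908644 in the table, measured 11.9, 10.7 and 13.4 FPKM in control and 17.9, 19.2 and 18.4 FPKM in treated libraries. All treated libraries were above the controls (log2 change 0.61 ± 0.08, adjusted p = 0.000382), and leaving out any one library gave changes of 0.53 to 0.69. It was the only one of the 5 risen genes whose call held under all 18 alternatives.

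EIF5A itself went from 1030, 1006 and 1025 FPKM to 969, 978 and 985 FPKM, a small gap that did not pass (-0.06 ± 0.035, adjusted p = 0.185). After quantile normalization it turned to 0.11 and passed as higher (adjusted p = 0.0204). The log2 ratio of EIF5A2 to EIF5A rose from -6.42 ± 0.152 to -5.73 ± 0.045 (n = 3 libraries), without overlap (exact permutation p = 0.1, adjusted p = 0.167 over 5 ratios). The ratio of EEF1A2 to EEF1A1 went from -7.23 ± 0.163 to -7.00 ± 0.031 with the same p, since EEF1A1 had the larger fall, but had a change of -0.18 after quantile normalization. EIF5AL1, a retrogene copy, had a change of -0.02.

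In summed reads the 60 factor genes took 2.39%, 2.40% and 2.49% of all reads in control and 2.10%, 2.06% and 2.10% in treated libraries. EEF1A1 and EEF2 together made up 1.03% to 1.10% of all reads in control and 0.797% to 0.823% in treated libraries. Most reads of this pair were from EEF1A1, with 248123 reads against 55660 for EEF2 in control replicate 1. EEF1A1 fell while EEF2 had overlapping groups and did not pass, so the pooled share does not show a fall of both. In bulk RNA fewer cells with a transcript and less RNA per cell cannot be told apart, and a share of reads also moves when other genes change.

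Other genes that act with the factors were read from lists. Of 8 genes for release and recycling 1 rose and 2 fell, close to the 22.5% and 19.9% of all tested genes. PELO (0.35), which rescues stalled ribosomes, was higher, and its GTPase partner HBS1L (-0.43) and the recycling factor MCTS1 (-0.21) were lower. ABCE1 (-0.15), another recycling factor, did not pass (adjusted p = 0.0573), but did in 5 of 18 alternatives, among them the fit with control replicate 1 left out (adjusted p = 0.00684). PELO went from 18.2 ± 0.579 to 23.3 ± 0.381 FPKM and HBS1L from 41.9 ± 1.63 to 30.9 ± 0.439 FPKM. Of 7 tested poly(A)-binding proteins and partners 1 rose and 3 fell, against the same shares of 22.5% and 19.9%. PABPC1 fell, and PAIP2 (0.23), which displaces it from poly(A), rose. PDCD4 (-0.21), an inhibitor of eIF4A, fell too, though without control replicate 1 or 2 or IFN-beta replicate 1 or 3 its call ended (adjusted p from 0.053 to 0.0824). LARP1 had a change of 0.11 and did not pass (adjusted p = 0.0822), but passed as higher in 4 of 18 alternatives, after rescaling to the same sum (adjusted p = 0.0263), quantile normalization (0.0473), voom (0.0484) and with control replicate 1 left out (0.00742).

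Of 7 genes for kinases acting on the factors, or for other subunits of mTORC1, 3 rose and 2 fell, beside 22.5% and 19.9% of all tested genes. MKNK2 (0.22), which phosphorylates eIF4E, and RPTOR (0.18), the mTORC1 scaffold, were higher, and MLST8 (-0.26), another mTORC1 subunit, was lower. MTOR had a change of -0.11 and did not pass (adjusted p = 0.0869), but passed in 4 of 18 alternatives, with 3 other scalings (adjusted p = 0.0283, 0.0351 and 0.047) and with control replicate 3 left out (0.0215). The RPTOR call ended after quantile normalization (adjusted p = 0.0544) and without control replicate 2 or 3 or IFN-beta replicate 2 or 3 (adjusted p from 0.0671 to 0.0938). That of MKNK1 (-0.12) ended in the fits without control replicate 1 or 2 or any one IFN-beta library (adjusted p from 0.0771 to 0.168).

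Of 13 enzymes that modify the elongation factors 3 rose and 3 fell, close to the 22.5% and 19.9% of all tested genes. DPH5 (-0.59) and DPH6 (-0.53), which build the diphthamide residue of eEF2, fell. DPH5 went from 35.2 ± 4.25 to 23.2 ± 1.26 FPKM and DPH6 from 16.2 ± 0.817 to 11.0 ± 0.763 FPKM. EEF1AKMT3 (0.37), a lysine methyltransferase of eEF1A, rose, as did DOHH (0.23), the last enzyme of hypusine synthesis. The DOHH call ended in 5 of the 6 fits with a library left out (adjusted p from 0.0799 to 0.132), all but the one without control replicate 2. It also ended after quantile normalization (adjusted p = 0.0771). DPH2 (0.12) did not pass, except after rescaling to the same sum (adjusted p = 0.0213).

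Among 8 tested factors for translation inside mitochondria 6 fell and 1 rose, beside 19.9% and 22.5% of all tested genes. MTIF3 (-0.62), the mitochondrial initiation factor, went from 55.1 ± 2.82 to 35.8 ± 2.71 FPKM, and the ribosome recycling factor MRRF (-0.43) from 70.7 ± 3.82 to 52.3 ± 1.11 FPKM. MTRF1L (0.24), a release factor, rose, but its call ended without control replicate 1 or 2 or IFN-beta replicate 2 (adjusted p from 0.0798 to 0.102). That call also ended after quantile normalization (adjusted p = 0.0652). GFM2 (-0.01) did not pass.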

How the data were processed

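The authors deposited FPKM values for 60671 genes in 6 libraries. Per the labels' protocols CLC Genomics Workbench 11.0.1 was used, for a step not named, and per the submitters' processing notes the builds were GRCm38 and mm10, although all 60671 identifiers are human. For the aligner, the counter and strand the sources used here name nothing. Whole reads and gene lengths were recovered from the FPKM steps (99.7% of totals, tolerance 0.0001 reads, in 30506 of 30507 genes). For 53 of 58 factor genes the recovered length lay within 10% of the mean length of the gene's GENCODE 29 transcripts, so FPKM of genes with many short transcripts are inflated and levels of different genes compare only roughly. The deposited FPKM carry no interval of their own, and the recovered totals cover counting error only.

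On log2(FPKM + 0.5), limma 3.58.1 was run under R 4.3.3 (eBayes with a trend, two-sided, Benjamini-Hochberg), over genes with a mean of at least 0.5 FPKM. Ratios used exact permutation tests (scipy 1.17.1). A simulation of this comparison over 15163 genes had 50 genes altered at each fold size. It gave calls for 48% at 1.25-fold, 74% at 1.5-fold, 94% at 2-fold and 100% at 4-fold, and for 7 of the 14963 left alone. Altered genes were far fewer there than the 42.4% called in the data. The Benjamini-Hochberg cutoff was therefore stricter in the simulation, and its rates do not carry over to the data. Alternatives were other pseudocounts, filters, scalings, eBayes settings, voom on the recovered reads, a replicate block and each library left out. Named with values in every library are EEF1B2, EIF4EBP1, a core set, and the called gene with the largest change per direction in each complex. Members and lists were chosen with earlier results of these data known.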

Additional observations from a re-analysis of the deposited data

How the results depend on the processing

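Of the 26 factor genes called, 15 kept direction and call under all 18 alternatives (14 lower, and EIF5A2). The count of risen genes was 3 without the filter on low values, 3 with median-of-ratios size factors, 3 with scaling on nuclear genes, 1 in eBayes without trend and 3 with the replicate block, and ran from 1 to 6 with single libraries left out. The count of fallen genes ran from 16 to 24 over all alternatives. Deviations of same-numbered libraries from their group means had correlations of -0.05, -0.10 and -0.06. These values show no pairing by replicate number, but with 3 libraries per group they cannot exclude one. With the replicate block 20 factor genes fell, and the calls of EIF1AD, EIF5B, EIF4EBP2 and EEF1AKNMT ended, EIF3C passed as higher (adjusted p = 0.0251), and the calls ended of RPTOR, MKNK1 and DOHH.

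Quantile normalization turned EIF4G2 to 0.1013, EIF5A to 0.1103, EEF2 to 0.1478, EIF2S1 to -0.0394, EIF3G to -0.0406 and EIF4E to -0.0233 and the EEF1A2 to EEF1A1 ratio to -0.181, and moved the EIF5A2 to EIF5A ratio from 0.69 to 0.452. Median-of-ratios factors turned EIF2S1 to -0.0095, EIF3G to -0.0255 and EIF4E to -0.0126. Scaling on nuclear genes turned EIF2S1 to -0.0087, EIF3G to -0.0247 and EIF4E to -0.0119. Rescaling to the same sum turned EIF6 to 0.0248, EIF4E2 to 0.0239, EIF5AL1 to 0.0164, EEF1E1 to 0.0156 and GFM2 to 0.0336. With single libraries left out, changes that did not pass and crossed 0 ran from -0.0742 to 0.0117 for EIF6, from -0.0045 to 0.0562 for EIF2S1, from -0.1339 to 0.0007 for EIF2B3, from -0.0203 to 0.0226 for EIF3G, from -0.0438 to 0.005 for EIF4E2, from -0.0613 to 0.089 for EIF4E, from -0.0684 to 0.0219 for EIF5AL1, from -0.1059 to 0.0418 for EEF1E1, from -0.0947 to 0.0058 for EEF2 and from -0.0548 to 0.0211 for GFM2. The cause of these shifts was not tested.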
